A study of Mus musculus with 8 samples.

Results

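The 9 genes described here encode the MYC transcription factors (Myc, Mycn and Mycl), their binding partner MAX, the 3 D-type cyclins (Ccnd1, Ccnd2 and Ccnd3) and the kinases that D-cyclins activate (Cdk4 and Cdk6). They were taken by symbol from the deposited table of 52097 mouse genes and all 9 were found, and all 9 passed the filter on low values. On GRCm38 the plus strand carries Myc at chr15:61985391-61990374, Mycl at chr4:122995652-123002485, Ccnd3 at chr17:47505051-47599691, Cdk4 at chr10:127063534-127067920 and Cdk6 at chr5:3341485-3531008. The minus strand carries Mycn at chr12:12936093-12941914, Max at chr12:76937269-76962201, Ccnd1 at chr7:144929931-144939925 and Ccnd2 at chr6:127125162-127152193. D-cyclins are made in response to growth signals, bind CDK4 or CDK6, and the active kinases phosphorylate the retinoblastoma protein, which releases E2F factors to drive entry into the cell cycle. MYC, which acts as a dimer with MAX at the DNA sequence known as the E-box, promotes ribosome production and metabolism, and Cdk4 and Ccnd2 are known among its targets. Most haematopoietic stem cells rest outside the cell cycle, and the level of CDK6 is known to affect how quickly they leave that resting state.

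RNA was sequenced from mouse bone marrow cells sorted in the stem cell gate, which lacks CD48, carries CD150 and is lineage-negative, Sca-1-positive and Kit-positive. There were 5 control libraries (genotype Nup214fl/fl, both alleles flanked by loxP sites and no Cre) and 3 knockout libraries (Nup214fl/fl,Mx1-Cre). All cells were taken on day 3 after pIpC, which mimics viral double-stranded RNA, raises interferon and so switches on Mx1-Cre. Mx1 responds to interferon in many cell types, so deletion is not limited to stem cells, and effects of Cre cannot be told apart from those of losing the nucleoporin gene Nup214. The sources used here do not give the animals' age, and do not tell whether libraries share an animal; the p-values therefore reflect only how far these libraries spread, which may be technical. Bulk values cannot tell apart fewer cells of a type and less RNA per cell.

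The values are FPKM, fragments scaled to transcript length and to sequencing depth, and can be compared between genes because they are per length. The depth estimated from the steps between low values was about 20200000 to 44500000 fragments in controls and 15800000 to 23500000 in knockouts. Nup214 itself was at 34.2 to 65.2 FPKM (controls) and 9.66 to 18.2 (knockouts; log2 fold change -1.66 ± 0.25, SE; limma adjusted p = 0.000289). After median-ratio rescaling it was at -0.74 (limma adjusted p = 0.0483), and the groups overlapped (lowest control 26.3, highest knockout 27.3). The mitochondrial genome took 5.02% to 6.66% of summed FPKM in controls and 37.8% to 43.3% in knockouts, and the median log2 fold change of the 15121 genes tested was -0.81, so the changes of the 9 genes are also given after rescaling. Markers of the labelled cell type were lower in knockouts: 10 of 12 stem and progenitor genes passed the test downward, and their summed level was 1243 to 1656 FPKM in controls and 340 to 446 in knockouts. Over all genes tested 59.5% passed downward and 8.91% upward. After median-ratio rescaling 10 of these 12 genes passed downward and 1 upward, against 17.1% and 18.7% of all genes. Markers of some other cells were higher: 11 of 13 macrophage genes rose, with sums of 442 to 605 FPKM in controls and 1866 to 7573 in knockouts, highest in knockout replicate 2. Among T and NK cell genes 14 of 15 rose (sums of 382 to 956 against 2042 to 2635), and among endothelial and stromal genes 11 of 15 rose and 2 fell (83.3 to 101 against 463 to 1124). Only 7 of these 15 endothelial and stromal genes had a control mean of at least 1 FPKM. Others may have passed the filter on low values only through the knockouts, and the rise of such genes adds no support. None of the genes in these 4 lists was at 0 throughout a group. By contrast, B lymphocyte genes summed to 822 to 2911 FPKM in controls and 218 to 392 in knockouts. Erythroid genes summed to 474 to 841 FPKM in controls and 166 to 452 in knockouts. Those sums are as deposited. The median log2 fold change was -0.49 for B lymphocyte genes and 0.18 for erythroid genes, above the -0.81 of all genes. After median-ratio rescaling 1 of 6 tested B lymphocyte genes was lower and 1 higher. Of 9 tested erythroid genes 3 were then lower and 4 higher, against 17.1% and 18.7% of all genes. The sums of neutrophil and monocyte genes and of megakaryocyte genes overlapped between the groups. The part of any of these cells in the results below was not tested.

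Promoter sequences are shown for 3 of these genes because they hold the letters that MYC and E2F factors are known to bind. Of the 9 genes, 6 had an entry among RefSeq promoters on GRCm38.p6 (7 sequences, since Ccnd3 had a pair of start sites); Myc, Ccnd1 and Ccnd2 did not match. The E-box letters CACGTG, which read the same on both strands, were searched together with the E2F letters TTTCCCGC, TTTGGCGC, TTTCGCGC and TTTGCCGC on both strands, in windows from 250 bases before to 50 bases after each start. The stretches below are the 250 bases before the start, 5′ to 3′ on the gene's own strand, with the matched letters in capitals. The Cdk4 stretch lies at chr10:127063285-127063534 on the plus strand, Cdk6 at chr5:3343643-3343892 on the plus strand and Mycn at chr12:12941837-12942086 on the minus strand.
Cdk4: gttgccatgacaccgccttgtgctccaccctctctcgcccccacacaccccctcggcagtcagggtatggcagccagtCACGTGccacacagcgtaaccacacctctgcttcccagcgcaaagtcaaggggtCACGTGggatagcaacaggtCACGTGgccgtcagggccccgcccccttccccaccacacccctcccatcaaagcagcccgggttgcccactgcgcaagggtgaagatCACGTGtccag
Cdk6: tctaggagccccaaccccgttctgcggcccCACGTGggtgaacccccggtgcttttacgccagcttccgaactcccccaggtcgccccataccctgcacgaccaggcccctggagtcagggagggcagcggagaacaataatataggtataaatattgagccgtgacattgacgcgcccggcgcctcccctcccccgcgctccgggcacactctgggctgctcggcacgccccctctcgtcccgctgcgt
Mycn: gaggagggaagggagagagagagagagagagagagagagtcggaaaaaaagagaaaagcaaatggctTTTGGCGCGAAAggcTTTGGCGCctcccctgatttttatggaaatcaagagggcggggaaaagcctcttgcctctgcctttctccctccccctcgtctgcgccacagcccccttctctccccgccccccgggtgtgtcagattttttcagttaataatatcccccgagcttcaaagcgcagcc
The Cdk4 window held 4 E-boxes, which begin 172, 118, 98 and 11 bases before the start. At least 1 E-box was in 7.15% of all 32851 promoter windows, and 4 or more were in 8 of them. Cdk6 held 1 E-box, 220 bases before the start, and Max held 1 that spans its start. These are RefSeq starts, and the whole Cdk6 stretch and part of the Mycn stretch lie inside the loci given above. Mycn held 3 E2F matches, of which the first and the second overlap, against at least 1 in 2.26% of all windows. The Mycl window and both Ccnd3 windows held neither motif, which says only that these letters are not in those windows.

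As deposited, 6 of the 9 genes were lower in the knockout, namely Myc, Mycn, Mycl, Max, Cdk4 and Cdk6, and the 3 D-cyclins did not pass the test in either direction. That count has to be read against the whole table, in which 59.5% of the genes tested were called lower and 8.91% higher. Mycl is counted among the lower genes although it passed the filter on low values only through its controls, so its call adds no support. The median log2 fold change was -1.57 over the 9 genes against -0.81 over all genes tested. After the libraries were rescaled by the median ratio of their genes, 4 of the 9 were lower (Myc, Mycl, Cdk4 and Cdk6), against 17.1% of all genes, and 3 were higher (Ccnd1, Ccnd2 and Ccnd3), against 18.7%. With quantile normalization and with scaling to the non-mitochondrial total Myc, Mycl, Cdk4 and Cdk6 were also lower (against 20.4% and 22.6% of all genes) and Ccnd1 and Ccnd2 higher (against 16.7% and 15.3%).

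**Figure D1:**
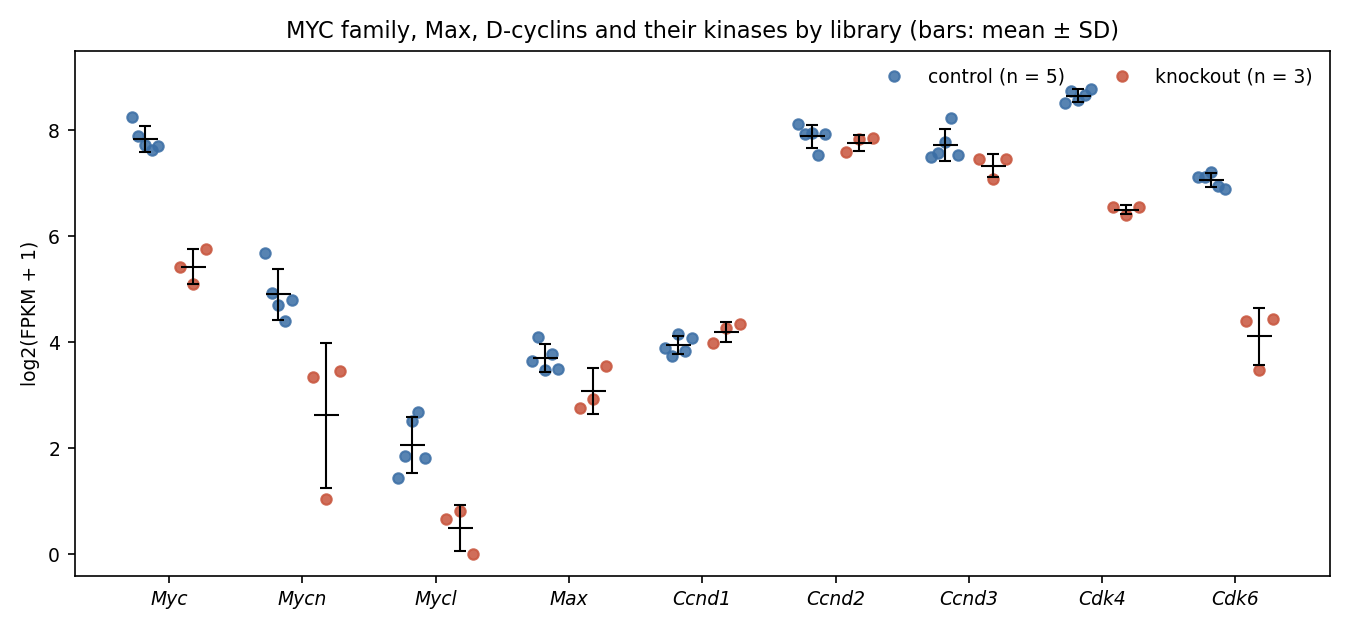
Level of the 9 genes in each library as log2(FPKM + 1), with control libraries in blue (n = 5) and knockout libraries in red (n = 3); bars give the mean and SD. Cdk4, Cdk6 and Myc lie far apart between the groups, Mycn is spread widely among the knockouts, and Ccnd1 and Ccnd2 overlap.

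Myc, the family member that dividing blood cells use most, fell to 18.5% of its control mean. For Myc, control replicates 1 to 5 gave 302, 237, 211, 197 and 209 FPKM and knockout replicates 1 to 3 gave 41.7, 33.2 and 53.4. Every knockout library lay below every control, with control replicate 1 the highest and knockout replicate 2 the lowest. Control libraries averaged 231 ± 42.4 (SD, n = 5) and knockout libraries 42.8 ± 10.1 (SD, n = 3), so the log2 fold change was -2.42 ± 0.19 (SE; limma adjusted p = 1.07e-05). Only 2.86% of the genes tested had a lower fold change. The call held after each rescaling, with log2 fold changes of -1.47 (median ratio; limma adjusted p = 0.00041), -1.55 (quantile) and -1.63 (non-mitochondrial total).

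Mycn, the paralogue best known from embryonic tissue and neuroblastoma, was the second most abundant family member. For Mycn, control replicates 1 to 5 gave 50.5, 29.6, 25.04, 20.2 and 26.8 FPKM and knockout replicates 1 to 3 gave 9.24, 1.07 and 10.1. The groups did not overlap, and knockout replicate 2 stood well below the other knockouts. Control libraries averaged 30.4 ± 11.7 (SD, n = 5) and knockout libraries 6.79 ± 4.97 (SD, n = 3), and the log2 fold change was -2.28 ± 0.55 (SE; limma adjusted p = 0.0052), or -1.49 without knockout replicate 2 (limma adjusted p = 0.00234). After rescaling it stayed lower in value, by -1.45 to -1.59, but did not pass (limma adjusted p = 0.0841, 0.078 and 0.065 with median ratio, quantile and non-mitochondrial total).

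Mycl, the third paralogue, was the lowest of the 9 genes. For Mycl, control replicates 1 to 5 gave 1.70, 2.60, 4.75, 5.47 and 2.54 FPKM and knockout replicates 1 to 3 gave 0.60, 0.76 and 0. With its longest transcript of 3501 nt, the first 2 knockout values stand for roughly 33.2 and 62.4 fragments. It fell by 1.57 ± 0.33 on the log2 scale (SE; limma adjusted p = 0.00215), or by 3.04 with a pseudocount of 0.1. After rescaling it was at -1.12 (median ratio; limma adjusted p = 0.0322), -1.21 (quantile) and -1.20 (non-mitochondrial total). Because Mycl entered the test only through the libraries in which it is high, these values are a description.

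Max, the partner without which MYC proteins do not bind DNA, moved less than its partners. For Max, control replicates 1 to 5 gave 11.5, 16.3, 10.1, 12.7 and 10.4 FPKM and knockout replicates 1 to 3 gave 5.75, 6.62 and 10.8. The groups overlapped, since knockout replicate 3 was higher than control replicates 3 and 5. Control libraries averaged 12.2 ± 2.51 (SD, n = 5) and knockout libraries 7.73 ± 2.71 (SD, n = 3), so the log2 fold change was -0.62 ± 0.23 (SE; limma adjusted p = 0.0344; exact two-sided permutation p = 0.0536). This call ended without control replicate 1, 2 or 4 or knockout replicate 1 or 2 (limma adjusted p between 0.0508 and 0.123), and with the replicate number as a block (limma adjusted p = 0.106). Relative to the median of all genes Max was at 0.19, and after median-ratio rescaling it was at 0.25 ± 0.23 (SE; limma adjusted p = 0.435).

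Within a library the ratio of genes does not depend on how libraries are scaled. Of the sum of Myc and Max, Myc made up 96.3%, 93.6%, 95.4%, 93.9% and 95.3% (control replicates 1 to 5) against 87.9%, 83.4% and 83.1% (knockout replicates 1 to 3). Each knockout lay below each control, and Myc stood at 19.5 ± 4.70 times the level of Max (SD, n = 5 controls), or 5.73 ± 1.32 times (SD, n = 3 knockouts). This share gave an exact two-sided p = 0.0179 by permutation, the smallest that 56 arrangements allow, and 0.0286 after adjustment over the 8 shares compared. The share of Myc in the summed MYC family was 87.4% ± 1.24 (SD, n = 5 controls) and 86.6% ± 7.26 (SD, n = 3 knockouts), a difference within the spread between libraries (exact two-sided permutation p = 0.804).

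Cdk4 was the most abundant of the 9 genes in controls and fell to 22.2% of that level. For Cdk4, control replicates 1 to 5 gave 365, 430, 377, 406 and 438 FPKM and knockout replicates 1 to 3 gave 92.4, 83.7 and 92.8. The groups were far apart, and the knockouts lay close together. Control libraries averaged 403 ± 31.9 (SD, n = 5) and knockout libraries 89.6 ± 5.17 (SD, n = 3), so the log2 fold change was -2.15 ± 0.12 (SE; limma adjusted p = 3.45e-06). Among the genes tested 4.41% had a lower fold change. After rescaling the log2 fold change was -1.20 (median ratio; limma adjusted p = 7.65e-05), -1.33 (quantile) and -1.36 (non-mitochondrial total). Of its exons, 641 nt are shared with Tspan31 on the opposite strand, whose mean was 73.9 FPKM in controls and 41.1 in knockouts. The strand setting was not stated, so fragments from the shared stretch cannot be told apart.

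Cdk6, the other kinase and the one most tied to blood cells, fell to 12.9% of its control mean. For Cdk6, control replicates 1 to 5 gave 137, 139, 147, 123 and 118 FPKM and knockout replicates 1 to 3 gave 20.1, 10.2 and 20.9. Every knockout was far below every control, and knockout replicate 2 was the lowest. Control libraries averaged 133 ± 12.1 (SD, n = 5) and knockout libraries 17.1 ± 5.97 (SD, n = 3), and the log2 fold change was -2.95 ± 0.22 (SE; limma adjusted p = 7.9e-06). Only 1.22% of the genes tested had a lower fold change. After rescaling it was -2.02 (median ratio; limma adjusted p = 0.000161), -2.04 (quantile) and -2.18 (non-mitochondrial total). The antisense gene Gm17590 shares 368 nt of exon with Cdk6 and was at a mean of 15.1 FPKM in controls and 8.91 in knockouts.

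Cdk6 lost more than Cdk4. Of the sum of both kinases, Cdk6 made up 27.4%, 24.4%, 28.0%, 23.2% and 21.2% (control replicates 1 to 5) against 17.9%, 10.8% and 18.3% (knockout replicates 1 to 3). The groups did not overlap (two-sided exact permutation p = 0.0179, at its lower limit; 0.0286 adjusted over the 8 shares).

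The D-cyclins, the regulatory partners of these kinases, did not pass the test as deposited. Their knockout means were 121% (Ccnd1), 90.8% (Ccnd2) and 75.3% (Ccnd3) of the control means. Ccnd2, the D-cyclin with the highest mean in both groups (Ccnd3 was higher in control replicate 4), gave 278, 242, 246, 184 and 243 FPKM (control replicates 1 to 5) and 191, 228 and 231 (knockout replicates 1 to 3). The groups overlapped, with the lowest value in control replicate 4. Control libraries averaged 238 ± 33.8 (SD, n = 5) and knockout libraries 217 ± 22.2 (SD, n = 3), a log2 fold change of -0.13 with a 95% interval from -0.48 to 0.21 (limma adjusted p = 0.469), which does not show that the levels are equal. Relative to the median of all genes it was at 0.68. Exons of Ccnd2 share 372 nt with the antisense gene Gm43126, at a mean of 6.52 FPKM in controls and 8.14 in knockouts. They also share 368 nt with the antisense gene 9330179D12Rik, at 0.36 and 0.81. After median-ratio rescaling Ccnd2 was at 141 to 224 in controls and 297 to 344 in knockouts, a rise of 0.82 ± 0.16 on the log2 scale (SE; limma adjusted p = 0.00271), and it also rose with quantile normalization (0.63; limma adjusted p = 0.0322) and the non-mitochondrial total (0.66; limma adjusted p = 0.00942).

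Ccnd3, the D-cyclin known from lymphocytes and erythroid cells, was nearly as abundant. Its exons share 361 nt with Bysl on the opposite strand, at a mean of 8.63 FPKM in controls and 5.59 in knockouts. For Ccnd3, control replicates 1 to 5 gave 180, 188, 219, 299 and 184 FPKM and knockout replicates 1 to 3 gave 175, 135 and 174. All 3 knockouts lay below the lowest control, but by little, and control replicate 4 was the highest. Control libraries averaged 214 ± 49.9 (SD, n = 5) and knockout libraries 161 ± 22.9 (SD, n = 3), a log2 fold change of -0.39 with a 95% interval from -0.82 to 0.04 (limma adjusted p = 0.0934). The value turned positive after rescaling: it was 0.56 (median ratio; limma adjusted p = 0.0374), 0.40 (quantile; limma adjusted p = 0.0994) and 0.40 (non-mitochondrial total; limma adjusted p = 0.102). The groups did not overlap downward in 6 of the 9 genes (Myc, Mycn, Mycl, Ccnd3, Cdk4 and Cdk6), against 54.5% of all genes tested, and upward in 0, against 7.89%.

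Ccnd1, the D-cyclin of many non-blood tissues and of some tumours, was low. For Ccnd1, control replicates 1 to 5 gave 13.9, 12.5, 16.8, 13.3 and 15.9 FPKM and knockout replicates 1 to 3 gave 14.8, 18.4 and 19.3. The groups overlapped, although knockout replicates 2 and 3 were above every control. Control libraries averaged 14.5 ± 1.80 (SD, n = 5) and knockout libraries 17.5 ± 2.39 (SD, n = 3), a log2 fold change of 0.25 with a 95% interval from -0.10 to 0.61 (limma adjusted p = 0.176). After rescaling it rose by 1.16 (median ratio; limma adjusted p = 0.00035), 1.12 (quantile) and 1.01 (non-mitochondrial total). Exons of Ccnd1 share 1100 nt with LTO1 on the opposite strand, which was at a mean of 23.9 FPKM in controls and 13.6 in knockouts, above Ccnd1 in controls, so the Ccnd1 values are uncertain.

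**Figure D2:**
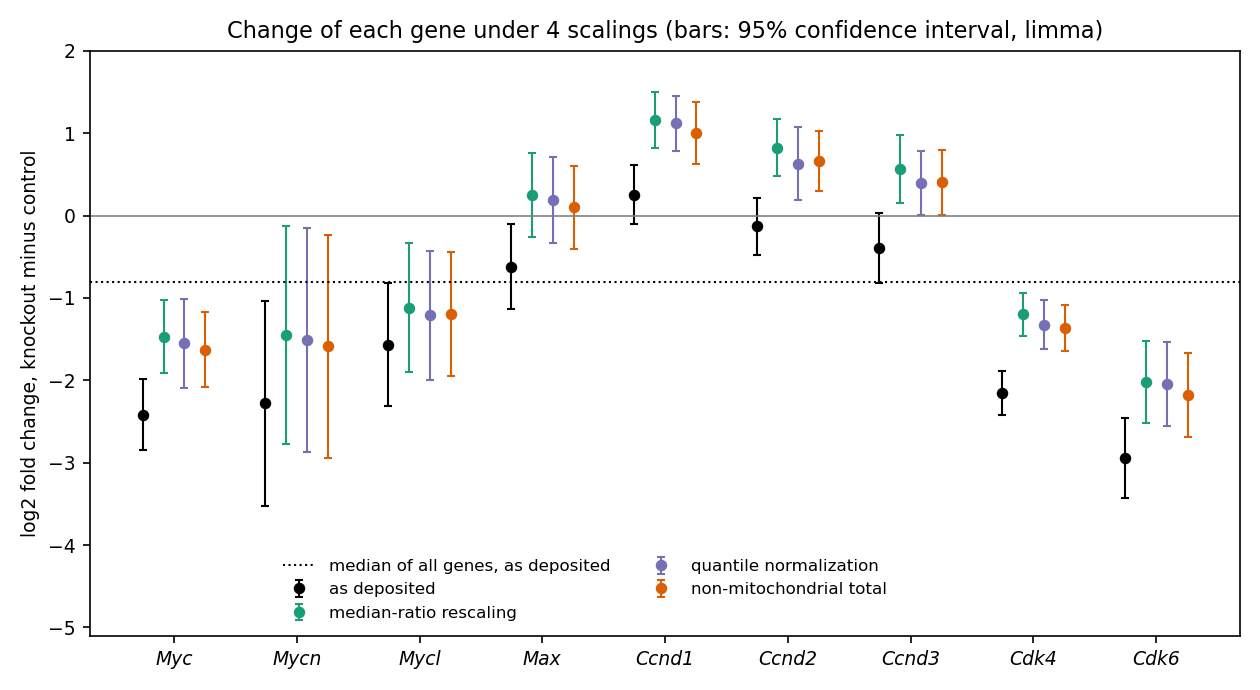
Log2 fold change of each gene (knockout minus control) for FPKM as deposited and after 3 rescalings; points are limma estimates and bars their 95% confidence intervals (5 controls, 3 knockouts). Myc, Mycn, Mycl, Cdk4 and Cdk6 are below 0 under all 4 scalings, although Mycn does not pass the adjusted test after rescaling. Max, Ccnd2 and Ccnd3 change sign between the deposited and the rescaled values, and the dotted line marks the median of all genes at -0.81.

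The shift between cyclins and kinases was also visible within libraries. D-cyclins made up 48.4%, 43.8%, 47.9%, 48.4% and 44.4% of the summed FPKM of D-cyclins, Cdk4 and Cdk6 (control replicates 1 to 5) against 77.2%, 80.2% and 78.9% (knockout replicates 1 to 3). The groups were far apart and each was narrow. D-cyclin transcripts stood at 0.875 ± 0.0794 times the level of both kinases together (SD, n = 5 controls) and at 3.72 ± 0.34 times (SD, n = 3 knockouts), with the kinase sum at 536 ± 26.4 and 107 ± 11.1 FPKM and the D-cyclin sum at 467 ± 23.6 and 395 ± 25.

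Among the D-cyclins the shares of Ccnd2 and Ccnd3 overlapped between the groups. Ccnd2 made up 51.3% ± 8.43 of their sum (SD, n = 5 controls) and 54.8% ± 4.82 (SD, n = 3 knockouts; exact permutation p = 0.643), and Ccnd3 45.6% ± 8.6 and 40.8% ± 5.28 (exact p = 0.5). Ccnd1 was a small part throughout, from 2.69% to 3.59% in controls and from 3.88% to 4.83% in knockouts, and its share was higher in every knockout than in any control (exact two-sided permutation p = 0.0179; 0.0286 adjusted over the 8 shares).

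**Figure D3:**
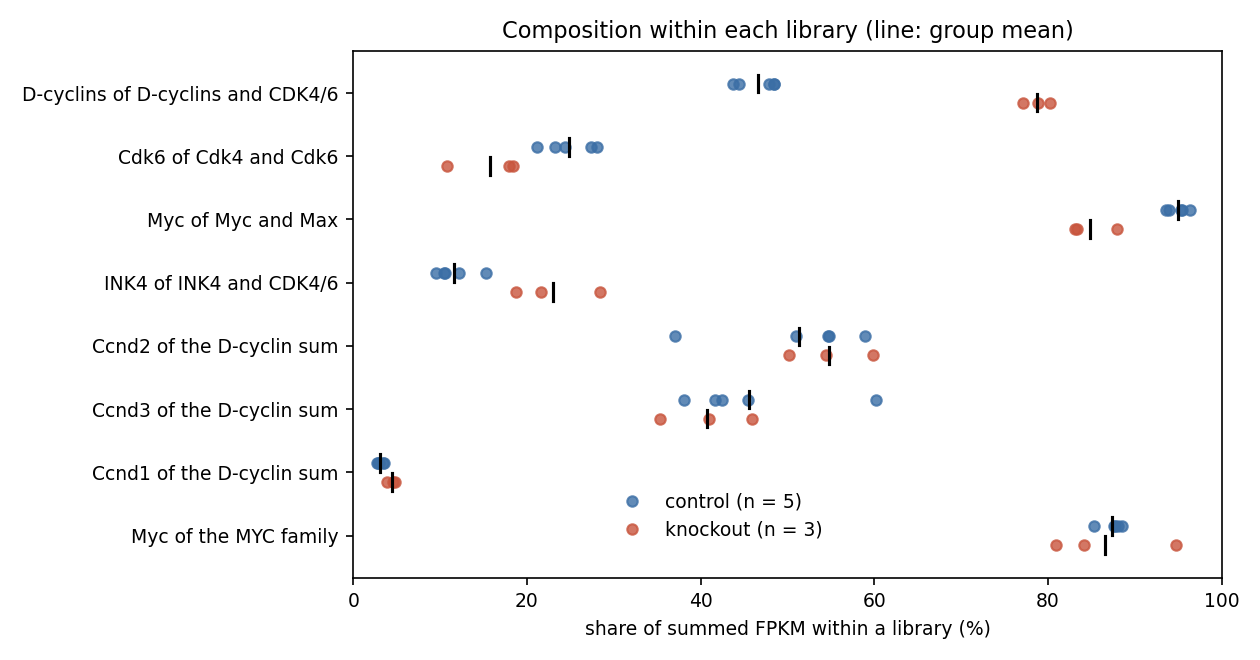
Share of summed FPKM within each library (x axis, percent) for 8 combinations of genes; blue points are 5 control and red points 3 knockout libraries, and black lines are group means. D-cyclins go from 43.8% to 48.4% of D-cyclins and kinases in controls to 77.2% to 80.2% in knockouts, whereas the shares of Ccnd2, Ccnd3 and of Myc within its family overlap.

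The order of levels differed between the groups. In controls Cdk4 was above Ccnd2 in 5 of 5 libraries, Ccnd2, Myc and Ccnd3 overlapped one another as neighbours in the order, and Cdk6, Mycn, Ccnd1 and Max, and Mycl followed. Ccnd1 and Max overlapped. In knockouts the order was Ccnd2, Ccnd3, Cdk4 and Myc, each above the next in 3 of 3 libraries, and Ccnd1, Cdk6, Max and Mycn then overlapped as neighbours above Mycl. Ranked by level among the 15121 genes tested, Cdk6 stood between 731 and 986 in controls and between 2956 and 5379 in knockouts, and Myc between 290 and 611 and then between 1147 and 1971. Cdk4 went from ranks of 224 to 288 to ranks of 585 to 751, while Ccnd2 was at 314 to 663 in controls and at 284 to 288 in knockouts and Ccnd1 at 5892 to 6842 and then 3284 to 3912.

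The genes whose profile over the 8 libraries was nearest to each of these were found by the root-mean-square difference of mean-centred log2(FPKM + 1) among named genes with a mean of at least 2 on that scale. For Myc they were Thsd1 (0.12) and Zbed3 (0.14), for Cdk4 Paip2 and Sinhcaf (both within 0.10), and for Cdk6 Lat2 (0.11) and Scrn2 (0.12). For Ccnd2 they were Lars2 (0.095) and Usp20 (0.098), for Ccnd3 Flna (0.075) and Trps1 (0.081), and for Ccnd1 Glmp (0.11) and Tgfbr3 (0.12). Max was nearest to Ctnnbip1 (0.097) and Lactb2 (0.13). Mycn and Mycl had less close neighbours, Cpne2 (0.31) and Stard10 (0.32), and Rrm2 (0.21) and Irf8 (0.23).

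The inhibitors that act on CDK4 and CDK6 were mostly low. Cdkn2d, which encodes the INK4 protein p19, was the main INK4 transcript and fell from 63.3 ± 14.9 FPKM (SD, n = 5) to 25.4 ± 12.2 (SD, n = 3), with a log2 fold change of -1.37 ± 0.30 (SE) and limma adjusted p = 0.00258, which did not pass after median-ratio rescaling (-0.44; limma adjusted p = 0.295). Cdkn2c, which encodes p18, was at 7.11 ± 1.34 and 6.18 ± 1.10 FPKM (limma adjusted p = 0.477); median-ratio rescaling raised its log2 fold change to 0.67 (limma adjusted p = 0.0269). Cdkn2a was listed at 0 in all libraries except knockout replicate 1 and Cdkn2b was below 1 FPKM in every library, so neither was tested. INK4 transcripts made up 9.52% to 15.3% of the sum of INK4, Cdk4 and Cdk6 in controls and 18.8% to 28.4% in knockouts.

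The CIP/KIP inhibitors did not move together. Cdkn1a, which encodes p21, rose from 37.6 ± 6.37 FPKM (SD, n = 5) to 52.7 ± 7.69 (SD, n = 3), by 0.48 ± 0.17 on the log2 scale (SE; limma adjusted p = 0.029), and by 1.42 after median-ratio rescaling (limma adjusted p = 0.00021). The call as deposited ended without control replicate 1, 4 or 5 or knockout replicate 2 or 3. Cdkn1b, which encodes p27, fell by 0.60 (limma adjusted p = 0.021), a call that ended without knockout replicate 2 and turned to 0.31 after median-ratio rescaling (limma adjusted p = 0.255). Cdkn1c, which encodes p57, was at 1.56 ± 1.19 and 2.85 ± 2.18 FPKM (limma adjusted p = 0.304).

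Downstream, the retinoblastoma gene Rb1 was at 6.0 ± 3.43 FPKM in controls and 5.34 ± 0.514 in knockouts (limma adjusted p = 0.953). Its relatives Rbl1 and Rbl2 fell by 1.04 (limma adjusted p = 0.00499) and 0.44 (limma adjusted p = 0.0223), but after median-ratio rescaling Rbl1 was at -0.18 (limma adjusted p = 0.635) and Rbl2 was higher (0.48; limma adjusted p = 0.0303). The Rbl2 call as deposited ended without control replicate 5 or knockout replicate 3. Of 10 E2F and DP factors 6 fell and none rose (median -0.68), a share near the 59.5% of all genes called lower, and their median is above the -0.81 of all genes. Tfdp2, a DP partner of E2F proteins, fell from 36.1 ± 3.12 to 7.68 ± 1.06 FPKM. It was the 1 factor still lower after median-ratio rescaling (-1.21, limma adjusted p = 0.000202), when 3 were higher. Under that scaling 17.1% of all genes tested were called lower and 18.7% higher. Of these factors E2f3 fell by 1.31 and Tfdp1 by 1.52 as deposited, and neither passed after median-ratio rescaling (-0.72 and -0.60).

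Targets of both pathways lay mostly below the median of all genes, while 59.5% of all genes tested were called lower as deposited. After median-ratio rescaling 17.1% of all genes were called lower and 18.7% higher. Of 20 MYC target genes 19 fell and none rose, and Odc1, ornithine decarboxylase, did not pass (median -1.52, or -0.65 after median-ratio rescaling with 9 lower and none higher). Npm1, the nucleolar chaperone nucleophosmin, went from 831 ± 118 to 212 ± 24.9 FPKM, Ppan, a factor of ribosome assembly, from 64.7 ± 5.59 to 15.1 ± 2.00, and Shmt2, a mitochondrial enzyme of serine metabolism, from 76.7 ± 4.68 to 21.2 ± 2.04. All 16 E2F target genes fell (median -1.47), and 7 were lower and none higher after median-ratio rescaling. Mcm7, a subunit of the replicative helicase, went from 131 ± 9.79 to 32.1 ± 1.46 FPKM, while Mcm6 fell by 1.73 and the ribonucleotide reductase gene Rrm1 by 1.74 on the log2 scale.

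The genes that work with MYC and with the kinases also lay lower, to be read against 59.5% of all genes called lower and 8.91% higher as deposited, and 17.1% and 18.7% after median-ratio rescaling. All 10 MYC cofactors fell (median -1.53), led by the helicase genes Ruvbl2 from 84.6 ± 13.8 to 16.5 ± 3.99 FPKM and Ruvbl1 from 94.2 ± 9.69 to 21.1 ± 3.53 and by Actl6a, and 5 were lower after median-ratio rescaling. All 6 genes of the CDK-activating kinase and of the chaperones that fold CDK4 fell (median -1.55), and 5 after median-ratio rescaling; Hsp90ab1 went from 1107 ± 94.4 to 366 ± 32.1 FPKM, Hsp90aa1 from 751 ± 150.3 to 194 ± 19.2 and Cdc37 from 155 ± 8.37 to 62.9 ± 11.3. Of 10 other cyclins, CDKs and CDC25 phosphatases 8 fell and 1 rose (median -1.14), with 1 lower and 1 higher after median-ratio rescaling. Cdk2, the kinase of cyclins E and A, went from 58.0 ± 2.88 to 16.4 ± 3.37 FPKM, Ccnb1 and Ccnb2 fell by 1.32 and 1.61 (-0.42 and -0.68 after median-ratio rescaling, neither called), and the 1 gene that rose was Cdc25b, from 8.90 to 19.0 FPKM, a call that ended without knockout replicate 3; it is named after its value was seen.

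Other partners of MAX stood at the background, in which 59.5% of all genes tested were called lower and 8.91% higher as deposited. After median-ratio rescaling those shares were 17.1% and 18.7%. Of 8 MAX network genes, which encode proteins that compete with MYC for MAX or bind its relative MLX, 5 fell and none rose (median -0.80), and none was called after median-ratio rescaling. Mnt, a MYC antagonist, was at 3.17 ± 0.436 and 1.01 ± 0.473 FPKM, and Mxi1 and Mlxip fell by 0.85 and 0.99 as deposited. Of 10 genes for turnover of MYC and D-cyclins 4 fell and none rose (median -0.36), with 1 lower and 3 higher after median-ratio rescaling. Huwe1, a ubiquitin ligase of MYC, went from 24.9 ± 3.70 to 7.59 ± 1.20 FPKM, and Fbxl14, an F-box protein gene, fell by 0.65 but was at 0.18 after median-ratio rescaling (limma adjusted p = 0.458). Of 14 upstream regulators 11 fell and 2 rose (median -0.69, above the -0.81 of all genes), with 2 lower and 4 higher after median-ratio rescaling. Stat5a, which carries cytokine signals to Ccnd2 and other genes, went from 36.3 ± 3.66 to 9.68 ± 1.94 FPKM, Stat3 and Foxo3 fell by 1.07 and 1.67, and after median-ratio rescaling Stat3 was no longer called (-0.13; limma adjusted p = 0.518) while Foxo3 was (-0.85; limma adjusted p = 0.0359). The 2 that rose were Lef1, a Wnt effector also used by T cells, and Foxo1, both named after their values were seen.

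**Figure D4:**
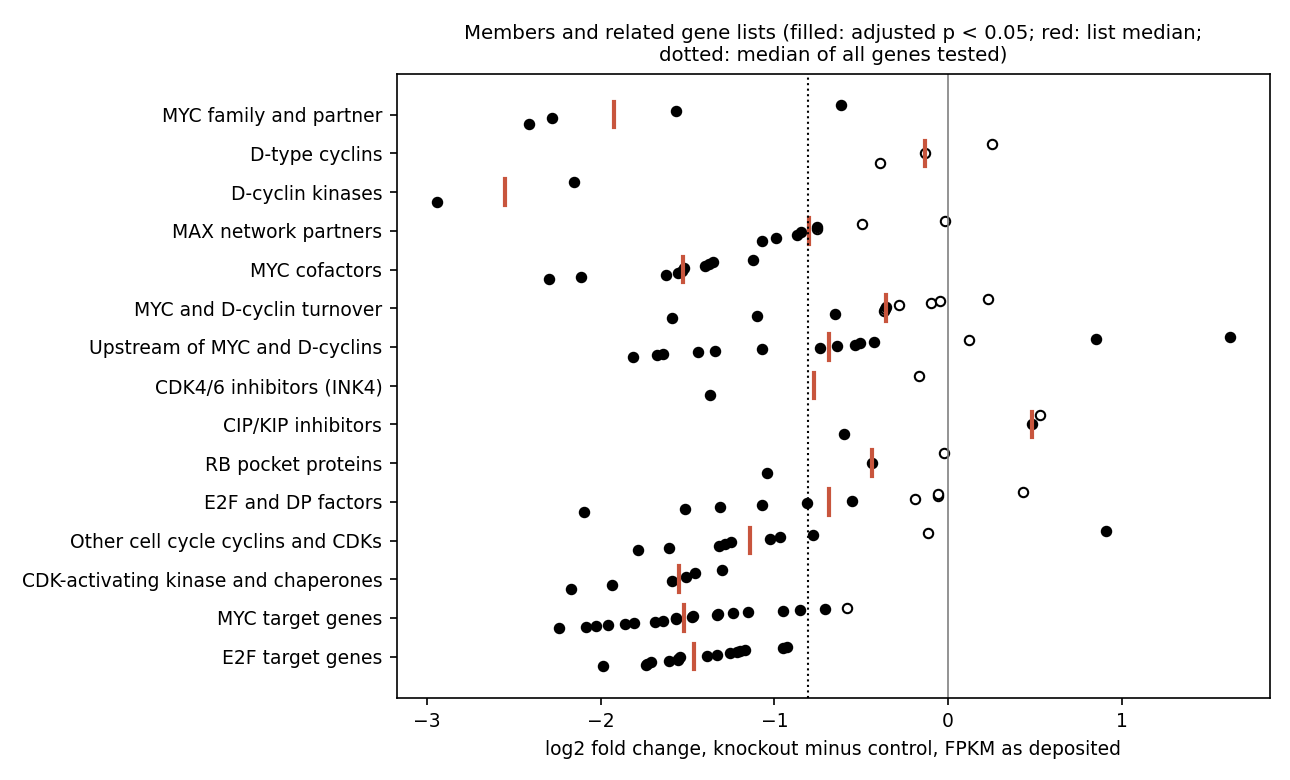
Log2 fold change (FPKM as deposited, knockout minus control) of every tested gene in the 3 member groups and 12 related lists; filled points passed the limma test at an adjusted p of 0.05, open points did not, and red lines are list medians. The D-cyclins lie to the right of the dotted median of all genes (-0.81), and the kinases, MYC genes and the targets of both pathways mostly lie to its left.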

How the data were processed

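Gene values from 8 libraries of sorted mouse bone marrow cells were used, 5 control and 3 knockout, grouped by the genotype labels. The deposited table holds FPKM made by the authors, and no count. Bowtie 0.12.9, Cufflinks 2.1.1, HTSeq, DESeq2 and the build mm10 are named, without roles, in the submitters' processing notes; the annotation, filters and strand setting are not given in the sources used here. Symbols matched all 52097 identifiers, and loci were read from the GRCm38 annotation of GENCODE M21 (mm10 is the same assembly). The groups were tested by limma 3.58.1 (R 4.3.3; trend, robust) on log2(FPKM + 1) for the 15121 genes that reached 1 FPKM in 3 or more libraries, with Benjamini-Hochberg adjustment over those genes and a threshold of 0.05. This scale understates the change of low genes. Shares within a library were compared by exact two-sided permutation tests over 56 arrangements. Shares that set sums of several gene groups against each other count among the 8 shares in the adjustment, but their p-values are not printed.

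Depth was estimated from low FPKM in genes with 1 transcript of 600 to 2500 nt: 77.7% to 92.2% of values fell within 0.15 fragments of a whole number, against 30% by chance. Near-identical copies of the 9 genes were sought with BLAST+ 2.17.0 (at least 90% identity over 200 nt): the pseudogene Ccnd3-ps and 5 others with values were at a mean of at most 1.02 FPKM in either group. In data simulated for this comparison with these 15121 genes, 43.2% of 2-fold and 81% of 4-fold changes were recovered, and 5.46% of calls were false. The simulation changed 200 genes, as many up as down, without a shift in scaling between libraries. In the real comparison 1348 genes were called higher and 8997 lower. The simulated rates therefore do not give the share of false calls in these data.

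The members and lists were chosen with earlier results of these data known. Named genes were the 9 members, Nup214, the 3 genes with the smallest p in each list (all genes of lists of at most 4), and the 2 nearest profiles; a gene that this rule names is not reported here. For 4 marker lists the Results do not give the counts as deposited. Of tested B lymphocyte genes 3 of 6 fell and 0 rose, and of neutrophil and monocyte genes 1 of 12 rose and 2 fell. Of tested erythroid genes 3 of 9 rose and 4 fell, and of tested megakaryocyte genes 1 of 7 rose and 5 fell. Over all genes tested 59.5% passed downward and 8.91% upward.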

Additional observations from a re-analysis of the deposited data

Results flagged for a closer look

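Tests for a library far from the rest of its group were made in the 5 controls for 56 measures, namely the 9 genes, Nup214, the 8 shares, the named list genes, the depth and the mitochondrial share; by chance about 1 in 20 such groups is marked. The share of Myc in the summed MYC family was 85.3% in control replicate 1, below the 87.6% to 88.5% of the other controls; Mycn was highest in that library. Mnt was at 3.94 FPKM in control replicate 1, above the 2.87 to 3.07 of the others. Fbxl14 was at 10.4 FPKM in control replicate 4, above the 7.55 to 8.04 of the others.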

How the results depend on the processing

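The calls of Myc, Cdk4 and Cdk6 kept their direction and side of the threshold under every alternative run. Mycl did so too, but it passed the filter only through its controls and was not tested with a filter of 5 FPKM. The others depended on scaling. With median-ratio rescaling, quantile normalization and the non-mitochondrial total, in that order, the log2 fold change was -1.45, -1.51 and -1.59 for Mycn (no longer called), 0.25, 0.19 and 0.10 for Max (not called), 1.16, 1.12 and 1.01 for Ccnd1 (called), 0.82, 0.63 and 0.66 for Ccnd2 (called), and 0.56, 0.40 and 0.40 for Ccnd3 (called with the first). The members called higher numbered 3, 2 and 2 against 0 as deposited, and over all genes 2826, 2530 and 2311 were higher and 2583, 3079 and 3409 lower, against 1348 and 8997; of all calls 52.2%, 45.1% and 40.4% were higher against 13.0%. The scaling moved the median of all genes from -0.81 to -0.03, -0.11 and -0.17. Without a filter 3561 genes were higher and Max was no longer called (-0.62; limma adjusted p = 0.0778); with a filter of 5 FPKM 619 were higher, of fewer genes tested.

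Leaving out 1 library gave 847 to 1351 higher genes (847 without knockout replicate 2 and 860 without knockout replicate 3) and -0.86 to -0.46 for Max. The shares differed by 1.11 to 1.58 percentage points for Ccnd1, -0.0472 to 5.82 for Ccnd2, -7.40 (without knockout replicate 1) to -1.16 (without control replicate 4) for Ccnd3, -10.5 to -6.72 for Cdk6, -11.6 to -9.28 for Myc of Myc and Max, -4.90 to 2.04 for Myc of its family, 31.4 to 33 for D-cyclins and 8.61 to 13.4 for INK4. Without a knockout library the smallest exact p is 0.0476, and no adjusted value over the 8 shares passed. Libraries with the same replicate number did not deviate together (correlations of -0.04, 0.03 and -0.04), and the main test did not pair them. Such correlations cannot show whether these libraries share an origin. With the replicate block Max was at -0.66 (limma adjusted p = 0.106) and no other member changed its call. Of 384 list counts 62 moved by over 1.5 times, 43 of them with a rescaling. The cause of these changes was not tested.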
